A study of Mus musculus with 6 samples.

Results

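RNA from pachytene spermatocytes in which MAPS was expressed again on a knockout background was compared with RNA from MAPS knockout cells. Both groups carried the MAPS deletion (MAPS-/-, here KO), and the EE_KO group also carried the allele written MAPS EE, labelled as overexpression of MAPS in KO. The study asked whether the sex chromosomes are silenced in pachytene cells that lack MAPS, a protein of the male pachytene nucleus. Cells came from mouse testis at about postnatal day 80 and were purified by STA-PUT, which separates cells by their sedimentation in a density gradient. For each group 3 mice of the same genotype were used, and 2 libraries per group were sequenced in 2 independent experiments. WT cells of the same age and purification (2 libraries) serve below as a reference level. The WT libraries also entered the same fit and so add to its estimate of the spread. The labels do not say what the letters EE stand for, which promoter drives the added MAPS, or whether a library pools mice. P-values therefore measure only the spread between these samples, which may be technical. All genes with a mean of at least 1 FPKM (fragments counted on a transcript, scaled to its length and to the depth of the library) over the 2 EE_KO and 2 KO libraries were included, 15901 of the 54532 genes in the deposited files. The lowest mean inside this limit was 1.00008 FPKM and the highest outside it was 0.999696 FPKM.

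Pachytene is the long stage of the meiotic prophase in which homologous chromosomes are synapsed and exchange DNA. In males the X and Y chromosomes pair only in part, are enclosed in a nuclear domain called the sex body, and are transcriptionally silenced, a process named meiotic sex chromosome inactivation. From mid pachytene on, spermatocytes switch on a large set of autosomal genes, under regulators such as the transcription factors A-MYB (Mybl1), TCFL5 and RFX2. Many of these RNAs are made ahead of need and serve the acrosome and the flagellum of the later sperm cell.

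Recovered from the FPKM values, library depth was 14178387 to 16565238 reads assigned to genes, and 1 read over a transcript of 2 kb corresponds to 0.0278 to 0.0357 FPKM. Replicates correlated at r = 0.98 on the log2 scale in each group (across genes, which are not independent replicates). The KO libraries stood apart from the other 4 in the markers of their own label. Summed over 24 markers of mid to late pachytene, FPKM was 639 and 767 in the KO libraries, 9723 and 10463 in EE_KO and 11150 and 10222 in WT. Sertoli cell markers took 3.39% and 3.40% of all FPKM in the KO libraries, 0.326% and 0.164% in EE_KO and 0.195% and 0.199% in WT. Mitochondrially encoded genes took 11.3% and 6.92% of all FPKM in KO, 2.54% and 2.33% in EE_KO and 1.69% and 1.71% in WT. Genes of spermatid chromatin took 0.00947% and 0.0106% in KO, 0.575% and 0.791% in EE_KO and 0.432% and 0.951% in WT. Whether spermatids were carried over into the purified cells was not tested. The part of these differences in the results below was not tested either. In bulk RNA, fewer cells of a type and less RNA per cell cannot be told apart.

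The gene that encodes MAPS, 1700102P08Rik (ENSMUSG00000032611), is a protein-coding gene on the plus strand of GRCm38 chromosome 9, from 108392805 to 108410934. It had 7.97 and 10.1 FPKM in the KO libraries and 109 and 82.2 FPKM in the EE_KO libraries. The WT libraries stood at 157 and 150 FPKM. Both EE_KO libraries lay above both KO libraries and below both WT libraries. The rise from KO to EE_KO was 3.26 on the scale of log2(FPKM + 1), on which all log2 changes here are given (SE 0.16, adjusted p = 3.4e-06, limma with Benjamini-Hochberg adjustment over all genes tested). Relative to WT the EE_KO level was 62.1%, a log2 difference of -0.70 that was not called (adjusted p = 0.35). The labels do not say which part of the gene was deleted or which sequence the added allele carries, so residual reads of the deleted gene and reads of the added allele cannot be told apart. Ccdc36, which lies on the opposite strand and overlaps the MAPS gene, stood at 2.70 and 4.54 FPKM in KO and 12.8 and 15.9 FPKM in EE_KO. Whether reads were counted by strand is not stated in the labels, so reads of these overlapping genes are uncertain.

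At an adjusted p below 0.05, 13406 genes (84.3%) were called, of which 7025 (44.2% of all) rose and 6381 (40.1%) fell from KO to EE_KO, and for 14744 genes (92.7%) the EE_KO libraries did not overlap the KO libraries. The median log2 change was 0.09, with quartiles at -1.25 and 1.65. A called change of at least 4-fold was found for 3095 genes (19.5%) upward and 2010 (12.6%) downward. The split depended on the scale between libraries. Rescaled to TPM (a fixed total in each library) the median was -0.28 and the split 6084 higher against 7364 lower, and after quantile normalization it was -0.14 and 6357 against 7105. Among genes that rose, the median EE_KO level was 96.5% of WT and the median KO level 14.9%. For genes that fell, EE_KO stood at 108% of WT and KO at 500%. Of the 15901 genes, 15187 (95.5%) stood between 50% and 200% of the WT mean FPKM in EE_KO and 4373 (27.5%) in KO. On the log2(FPKM + 1) scale, which narrows the differences of low genes, 15745 (99.0%) lay within 2-fold of WT in EE_KO and 5530 (34.8%) in KO. Long non-coding RNAs rose more often than they fell (1312 against 359 of 1905, median 1.62), whereas protein-coding genes were split nearly evenly (5065 against 5523 of 12326, median -0.11). The plot of EE_KO against KO and WT levels shows this contrast over all genes tested.

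**Figure D1:**
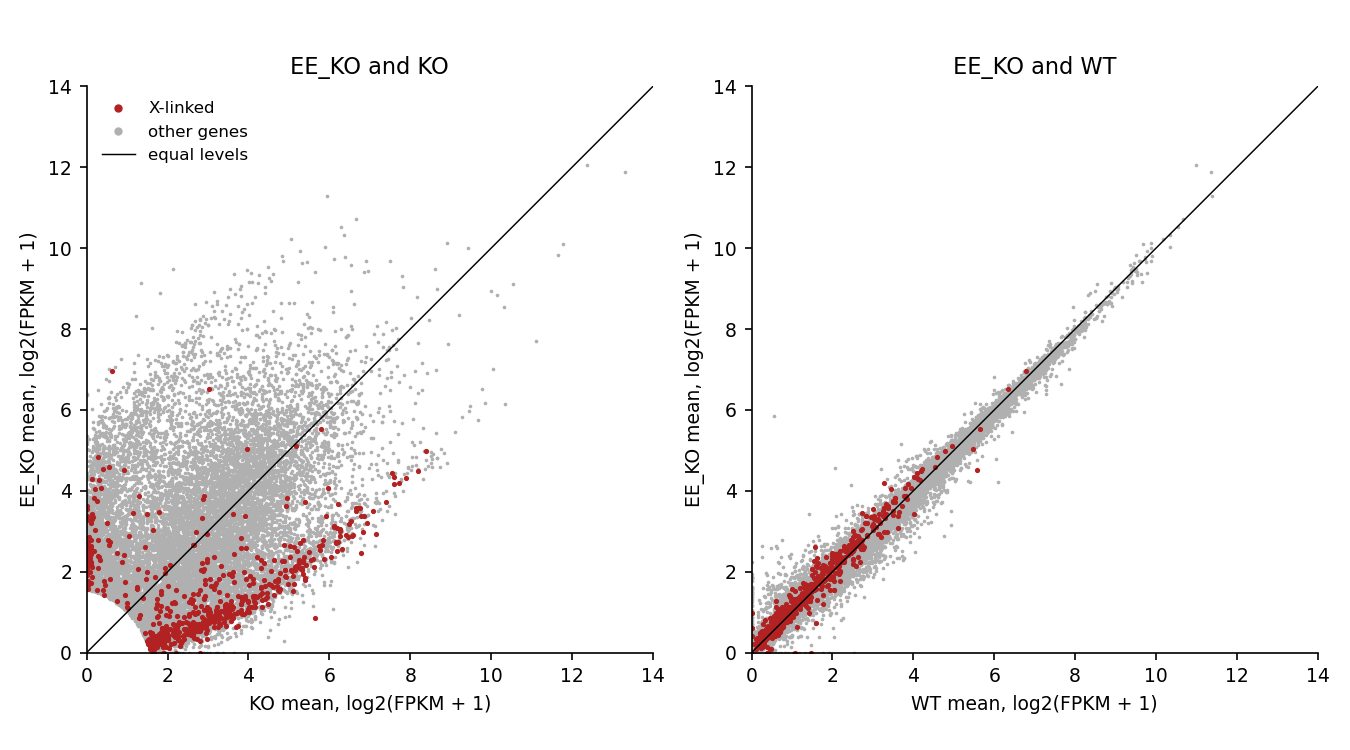
Mean level of each of the 15901 genes in EE_KO (vertical axis, log2(FPKM + 1)) against KO (left) and WT (right), with X-linked genes in red, other genes in grey and equal levels on the line. Genes scatter widely around the line against KO and lie close to it against WT, and most X-linked genes lie below the line against KO. The empty corner at the lower left of the KO panel is the limit of 1 FPKM.

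The gene lists were taken from textbook knowledge, but were chosen with earlier results of these data known. Among the germ cell lists, the markers of mid to late pachytene and the parts of the later sperm cell rose most. Lists of the structural and enzymatic parts of sperm had medians between 3.63 and 5.56, and pachytene markers had one of 4.62, against 0.09 for all genes tested. Members that were under 1 FPKM in KO entered the fit only through EE_KO and had to differ, so the summed FPKM of all listed genes is also given. By either measure spermatid chromatin stood first. The order after it depended on the measure. By median it ran from the axoneme (4.74) over the fibrous sheath (4.67), pachytene markers, the acrosome (4.56) and the ion channels of the flagellum (4.30) to the germ cell energy isozymes (4.21). By the fold of the summed FPKM it ran from ion channels (34.7-fold) over the fibrous sheath (34.2-fold), the acrosome (33.6-fold), the axoneme (29.0-fold) and energy isozymes (26.7-fold) to pachytene markers (14.3-fold). Genes of synapsis, recombination and sex body signalling had medians of 0.08, 0.68 and 0.30, and their sums were 2.26-, 3.17- and 5.5-fold higher in EE_KO.

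**Figure D2:**
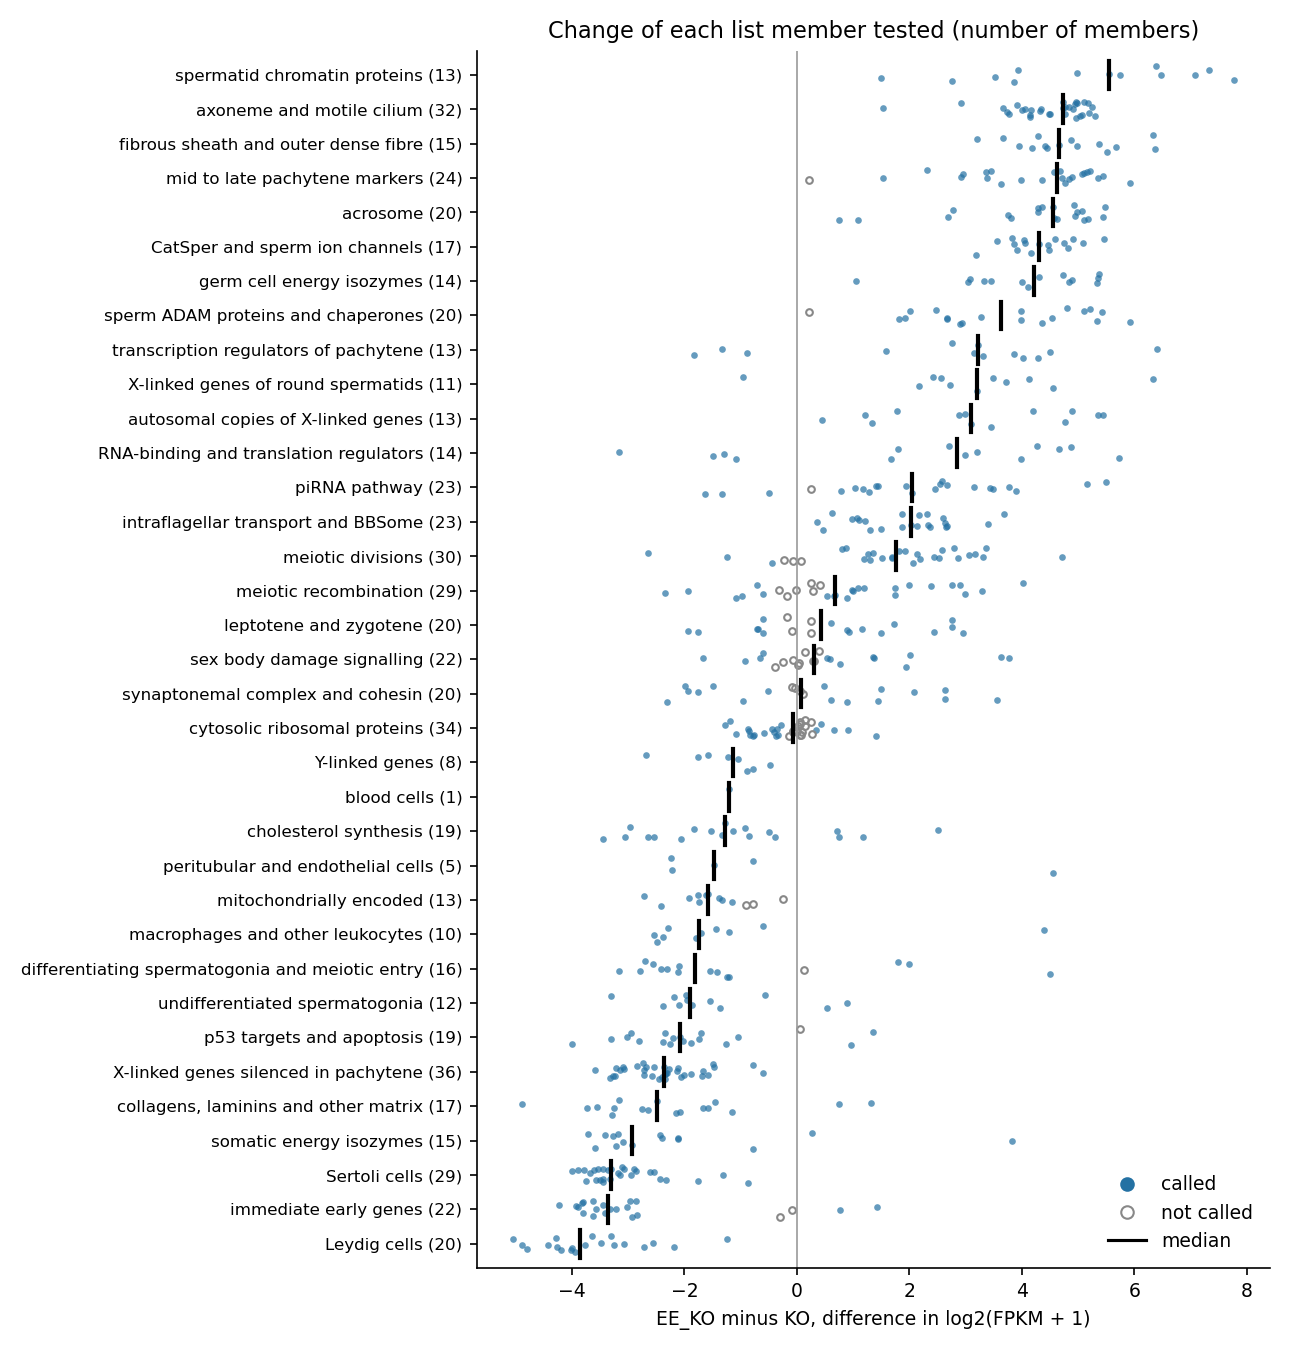
Change from KO to EE_KO (horizontal axis, difference in log2(FPKM + 1)) of each tested member of 35 gene lists, with the number tested in brackets, filled points called by limma, open points not called and a bar at the median. Spermatid chromatin has the highest median at 5.56 and Leydig cell markers the lowest at -3.86.

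Markers of mid to late pachytene itself rose in 23 of 24 cases (median 4.62, sum 14.3-fold higher), with 1 member under 1 FPKM in KO. Hspa2, a heat shock protein that spermatocytes need to leave prophase (plus strand of chromosome 12, 76404176 to 76406938), stood at 63.1 and 74.3 FPKM in KO and 846 and 864 FPKM in EE_KO, a rise of 3.62 (SE 0.12, adjusted p = 7.2e-07). The EE_KO values matched the 878 and 817 FPKM of WT closely, and KO lay far below. Nme5, a protein of cilia and flagella, stood at 1.21 and 1.10 FPKM in KO and 61.0 and 59.5 FPKM in EE_KO. Tex101, a membrane glycoprotein of germ cells, was the member not called, at 82.9 and 106 FPKM in KO and 111 and 106 FPKM in EE_KO.

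Chromatin proteins of spermatids replace or modify histones when the sperm nucleus condenses. Summed over the 14 listed genes, FPKM was 23.8 and 24.7 in KO and 1815 and 2571 in EE_KO, 90.4-fold higher. All 13 members tested rose, of which 7 were under 1 FPKM in KO. Prm1, a protamine that packs the DNA of sperm (minus strand of chromosome 16, 10796326 to 10805839), stood at 1.07 and 2.02 FPKM in KO and 429 and 691 FPKM in EE_KO. That rise of 7.77 (SE 0.43, adjusted p = 5.3e-06) was the largest among named genes, and the WT libraries themselves stood at 273 and 670 FPKM. Tnp2, a transition protein that precedes the protamines, stood at 3.92 and 2.81 FPKM in KO and 566 and 855 FPKM in EE_KO, a rise of 7.33 (SE 0.36). Prm2 rose by 7.07 (SE 0.36), Tnp1 by 6.48 (SE 0.36) and Hils1, a linker histone of spermatids, by 6.38 (SE 0.27). In each of these 5 genes both KO libraries stood far below the rest, and at least 1 EE_KO library lay between the WT libraries. Brdt, a bromodomain reader of acetylated histones that acts already in spermatocytes, started from a higher level (10.9 and 11.8 FPKM in KO) and reached 78.0 and 87.4 FPKM in EE_KO. EE_KO library 1 was below library 2 for 12 of the 13 members (ratio of sums 0.706), and WT library 1 was below WT library 2 (ratio 0.473).

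The axoneme is the microtubule core of the flagellum. All 32 members tested rose (33 listed, 5 under 1 FPKM in KO), and their sum went from 175 and 203 FPKM to 5348 and 5596 FPKM, 29.0-fold. Dnah8, a dynein heavy chain of the outer arm, stood at 5.14 and 5.70 FPKM in KO and 245 and 260 FPKM in EE_KO, a rise of 5.30 (SE 0.11, adjusted p = 4.3e-07). Tekt3, a tektin of the axonemal microtubules, stood at 2.39 and 2.27 FPKM in KO and 115 and 114 FPKM in EE_KO. Meig1, needed to build the manchette and the flagellum, stood at 22.9 and 23.7 FPKM in KO and 644 and 680 FPKM in EE_KO. The replicates of these 3 genes differed far less than the groups, and EE_KO lay just below WT in each. Intraflagellar transport, the cargo traffic that builds cilia, had all of its 23 members higher as well, but with smaller changes (median 2.03, sum 4.69-fold higher). Ift172, Ift140, Ift22 and Ift122, subunits of the transport trains, rose by 3.68, 3.40, 2.66 and 2.64, and no member was under 1 FPKM in KO.

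Fibrous sheath and outer dense fibre proteins stiffen the flagellum outside the axoneme. Their 15 genes all rose, 7 of them from under 1 FPKM in KO, and the sum went from 42.4 and 49.9 FPKM to 1433 and 1724 FPKM (34.2-fold). Odf1, a main protein of the outer dense fibres, stood at 1.71 and 2.45 FPKM in KO and 208 and 308 FPKM in EE_KO, a rise of 6.38 (SE 0.29). Akap4, the X-linked anchoring protein of the fibrous sheath, stood at 0.680 and 0.399 FPKM in KO and 102 and 147 FPKM in EE_KO, a rise of 6.33 (SE 0.29). Spa17, a sperm protein of the fibrous sheath, stood at 8.39 and 9.71 FPKM in KO and 183 and 178 FPKM in EE_KO, below the 230 and 250 FPKM of WT, although its difference from WT was not called (-0.40, adjusted p = 0.41). Smcp, a cysteine-rich protein around sperm mitochondria that is outside the lists, rose by 7.03 (SE 0.30), from 2.93 and 2.14 FPKM to 369 and 573 FPKM.

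Acrosome genes serve the vesicle that opens at fertilization. All 20 rose, 9 of them from under 1 FPKM in KO, and the sum went from 59.8 and 61.6 FPKM to 1928 and 2147 FPKM (33.6-fold). Acr, the protease acrosin, stood at 2.95 and 2.98 FPKM in KO and 125 and 142 FPKM in EE_KO, a rise of 5.08 (SE 0.11, adjusted p = 4.3e-07). Zpbp2, which binds the zona pellucida, rose by 5.48, Crisp2, a cysteine-rich secretory protein, by 5.45 and Spink2, a protease inhibitor of the acrosome, by 4.57. No EE_KO library came near a KO library in any of these genes.

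CatSper and other sperm ion channels carry the calcium and proton currents that drive motility. All 17 members tested rose (18 listed, 8 under 1 FPKM in KO), and the sum went from 32.6 and 40.6 FPKM to 1204 and 1331 FPKM (34.7-fold). Catsperz, an auxiliary subunit of the CatSper channel, stood at 7.41 and 9.36 FPKM in KO and 395 and 425 FPKM in EE_KO, a rise of 5.46 (SE 0.13). Catsper2, a pore subunit, rose by 4.30 and Catsperb by 4.06. The sperm ADAM proteins, membrane proteins of the metalloprotease family that act in sperm migration and egg binding, were higher as well: 19 of 20 rose, 10 members were under 1 FPKM in KO, and the sum was 14-fold higher. Adam3 stood at 5.35 and 5.56 FPKM in KO and 362 and 418 FPKM in EE_KO, a rise of 5.92 (SE 0.13). Adam2, Adam5 and Adam32 rose by 5.22, 5.42 and 5.11. Calculated FPKM of close relatives in this family can share reads, and the labels do not say how such reads were assigned.

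Spermatocytes rely on lactate and on enzymes of their own for energy, many encoded by autosomal retrocopies of somatic or X-linked genes. All 14 germ cell isozymes rose, and the sum went from 168 and 214 FPKM to 4929 and 5277 FPKM (26.7-fold). Ldhc, the lactate dehydrogenase of germ cells, stood at 52.9 and 68.5 FPKM in KO and 2424 and 2618 FPKM in EE_KO, a rise of 5.36 (SE 0.16, adjusted p = 5.5e-07). Slc2a3, a glucose transporter, stood at 20.6 and 23.1 FPKM in KO and 590 and 627 FPKM in EE_KO. Pgk2, an autosomal copy of the X-linked phosphoglycerate kinase gene Pgk1, stood at 5.13 and 6.48 FPKM in KO and 178 and 222 FPKM in EE_KO. Both EE_KO libraries of each of these genes lay far above both KO libraries. Of the 15 somatic counterparts, 13 fell (median -2.93, sum 1.78-fold higher in KO). Cox8a, a subunit of cytochrome oxidase, fell by 3.28 (SE 0.16), from 112 and 81.7 FPKM to 9.52 and 8.46 FPKM. Ldha, which spermatocytes also use, rose by 3.83 (SE 0.13), from 24.8 and 29.4 FPKM to 383 and 411 FPKM. Eno1 stood at 57.3 and 55.9 FPKM in KO and 67.1 and 69.1 FPKM in EE_KO, and its change of 0.26 (adjusted p = 0.028) turned to -0.14 on the TPM scale and -0.36 after quantile normalization.

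Pairs of genes that encode a germ cell form and a somatic or X-linked form of the same protein were compared within each library. Rpl10l, the autosomal copy of the X-linked ribosomal protein gene Rpl10, made up 33.0% and 35.5% of the FPKM of the pair in KO and 97.6% and 98.2% in EE_KO. In WT it made up 98.6% and 98.6%. Pgk2 made up 13.9% and 16.3% of Pgk2 plus Pgk1 in KO and 97.7% and 99.1% in EE_KO. Gapdhs, the sperm glyceraldehyde phosphate dehydrogenase, made up 34.6% and 28.7% of the pair with Gapdh in KO and 99.3% and 99.8% in EE_KO. Ubl4b made up 0.542% and 2.99% of the pair with X-linked Ubl4a in KO and 93.5% and 95.5% in EE_KO. In all 20 pairs the germ cell form held a larger share in both EE_KO libraries than in either KO library. The 13 autosomal copies of X-linked genes all rose, and their sum went from 103 and 111 FPKM in KO to 1456 and 1508 FPKM in EE_KO, against 1818 and 1748 FPKM in WT (83.1%). Rpl39l accounted for part of that gap, with 107 and 90.4 FPKM in EE_KO and 206 and 196 FPKM in WT, although its difference from WT was not called (-1.03, adjusted p = 0.27). Rpl36al rose least, by 0.44 (adjusted p = 0.035), and lost this call under 8 of the 17 alternative settings.

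**Figure D3:**
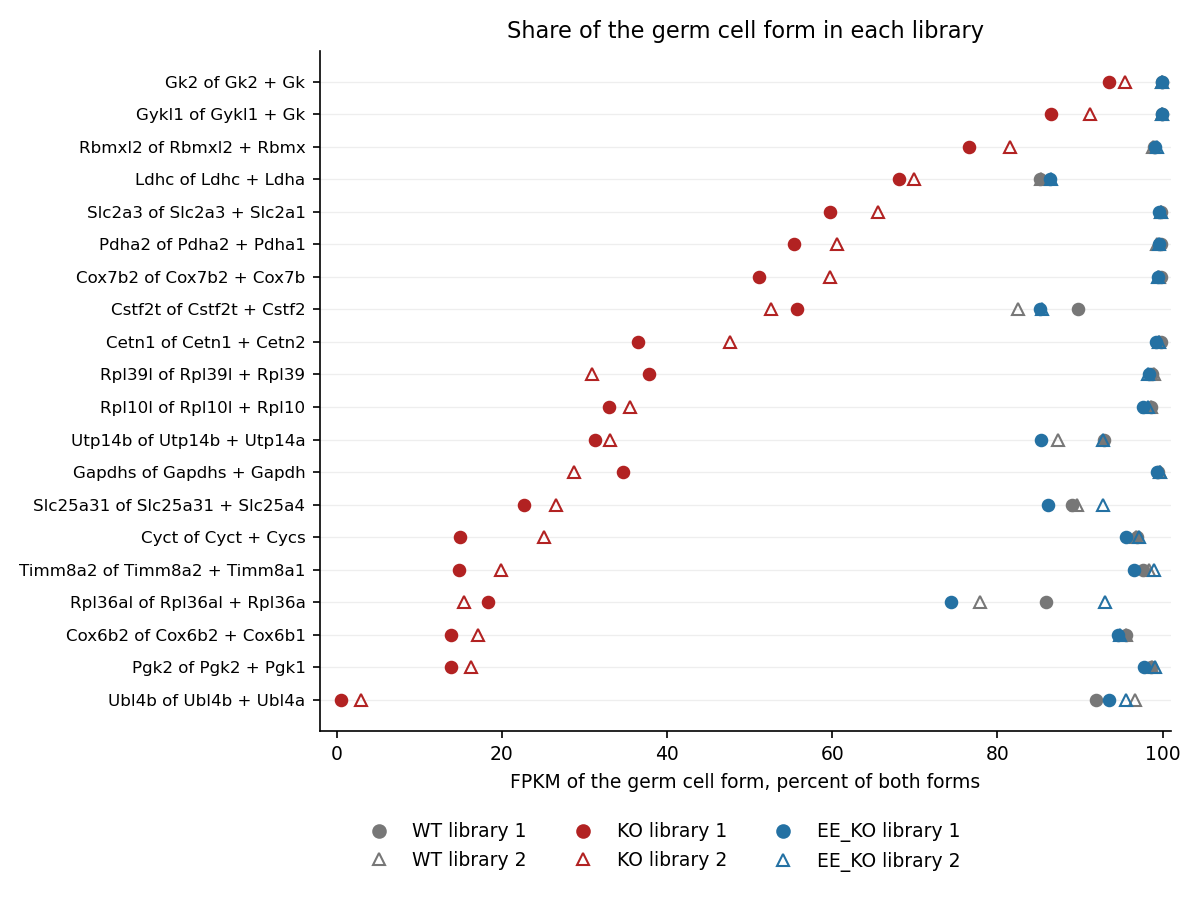
Share of the germ cell form in the summed FPKM of each of 20 gene pairs (horizontal axis, percent), by library, with WT in grey, KO in red and EE_KO in blue. The KO libraries lie to the left of the EE_KO libraries in every pair, from 0.542% for Ubl4b to 95.5% for Gk2, while EE_KO lies from 74.4% to nearly 100%.

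Of 13 transcription regulators of the pachytene programme 10 rose and 3 fell, with a summed level 11.8-fold higher (125 and 129 FPKM in KO, 1432 and 1563 FPKM in EE_KO). Rfx2, a transcription factor of ciliary and spermatid genes, stood at 3.66 and 4.42 FPKM in KO and 97.2 and 96.4 FPKM in EE_KO, a rise of 4.28 (SE 0.11, adjusted p = 4.8e-07). Kctd19 and Zfp541, partners in a histone deacetylase complex of pachytene, rose by 4.03 and 3.23. Dmrtb1, a factor that acts from spermatogonia onward, rose by 4.51, from 17.6 and 22.6 FPKM to 465 and 488 FPKM. Spz1, a zipper transcription factor of the germ line, rose by 6.40 from 0.579 and 1.05 FPKM. Mybl1, which encodes A-MYB and was looked up after its values were known, stood at 10.3 and 8.94 FPKM in KO and 28.6 and 33.5 FPKM in EE_KO, a rise of 1.59 (SE 0.16). Against these, Taf4b fell by 1.82, Btbd18 by 1.33 and Taf7 by 0.89. Taf4b and Taf7 encode subunits of the general transcription factor TFIID, and Btbd18 is a nuclear factor of piRNA precursor transcription.

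The piRNA pathway, which makes small RNAs that guard the germ line against transposons, had 19 members higher, 3 lower and 1 not called of 23, none of them under 1 FPKM in KO. Their sum was 339 and 392 FPKM in KO and 2214 and 2435 FPKM in EE_KO (6.36-fold). Piwil1, the PIWI protein of pachytene piRNAs, stood at 6.55 and 9.18 FPKM in KO and 290 and 336 FPKM in EE_KO, a rise of 5.16 (SE 0.16, adjusted p = 5.7e-07). Tdrd6, a tudor protein of the chromatoid body, stood at 5.0 and 5.25 FPKM in KO and 264 and 288 FPKM in EE_KO. Mael, which acts in transposon silencing, stood at 44.7 and 53.2 FPKM in KO and 644 and 719 FPKM in EE_KO. The EE_KO values of all 3 lay around or slightly below those of WT. Fkbp6, a chaperone partner of piRNA loading, fell by 1.63 (SE 0.11), from 56.9 and 59.0 FPKM to 19.0 and 17.3 FPKM, and Pnldc1, the trimmer of piRNA ends, fell by 0.50 (adjusted p = 0.029). The call of Pnldc1 was lost without a filter on low values and without EE_KO replicate 1, EE_KO replicate 2 or KO replicate 2.

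Promoters of members that rose together are shown because the binding letters of regulators named above occur in them. Searched on both strands in the 250 bases before the RefSeq start, the A-MYB letters AACNGNC were present in 27.9% of all 19033 promoters matched to a gene of the files. Among the 10143 promoters of genes tested, from which the called genes come, the share was 29.4%. The A-MYB letters were present in 36.2% of promoters of genes called at least 4-fold higher (700 of 1935) and 24.3% of those called at least 4-fold lower (342 of 1406). Among list members with a promoter in the table they were present in 7 of 9 sperm ADAM genes, 8 of 17 piRNA pathway genes, 7 of 15 pachytene markers and 11 of 27 axoneme genes. Autosomal copies of X-linked genes held them in 5 of 11 promoters, meiotic divisions in 9 of 24 and intraflagellar transport in 7 of 19. Smaller shares were found in some lists that rose, with 3 of 12 fibrous sheath, 3 of 14 ion channel and 2 of 10 spermatid chromatin genes. Acrosome genes held them in 3 of 17 promoters and RNA-binding genes in 1 of 9. Of lists that moved in both directions, sex body signalling held them in 9 of 18, leptotene and zygotene in 6 of 12, synapsis in 6 of 15 and recombination in 6 of 19. Of lists that fell, 11 of 30 silenced X-linked genes, 6 of 15 Leydig markers and 1 of 16 Sertoli markers had them. The letters GTTGCC, the core of the X-box that RFX factors bind, were present in 11% of all promoters and 11.55% of promoters of genes tested. These letters were present in 15.0% of genes called at least 4-fold higher and 9.60% of those called at least 4-fold lower. They were present in 10 of 27 axoneme genes and 5 of 19 intraflagellar transport genes, but in 1 of 12 fibrous sheath genes and 0 of 14 ion channel genes of the same flagellum, and in 0 of 17 piRNA genes. Leydig markers had them in 4 of 15 promoters and Sertoli markers in 0 of 16. Also searched was the cyclic AMP response element TGACGTCA (2.17% of genes called at least 4-fold higher, 2.35% of those called at least 4-fold lower, 2.85% of genes tested and 2.0% of all promoters). The NR5A1 letters CAAGGTCA had shares, in the same order, of 1.5%, 1.21%, 1.025% and 1.16%. These are matches of letters, with no test and no measure of binding. The following sequences (RefSeq, GRCm38.p6, 5′ to 3′ along the strand of the gene, ending just before its start) come from piRNA genes with AACNGNC and from flagellar genes with GTTGCC, with the matched letters of either strand in capitals.
Mael (chr1:166238745-166238994, minus strand): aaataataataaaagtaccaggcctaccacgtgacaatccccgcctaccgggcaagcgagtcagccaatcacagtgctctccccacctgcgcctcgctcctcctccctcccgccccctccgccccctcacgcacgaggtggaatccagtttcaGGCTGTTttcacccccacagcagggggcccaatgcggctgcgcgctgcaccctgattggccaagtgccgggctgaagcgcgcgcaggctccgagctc
Tdrd9 (chr12:111971309-111971558, plus strand): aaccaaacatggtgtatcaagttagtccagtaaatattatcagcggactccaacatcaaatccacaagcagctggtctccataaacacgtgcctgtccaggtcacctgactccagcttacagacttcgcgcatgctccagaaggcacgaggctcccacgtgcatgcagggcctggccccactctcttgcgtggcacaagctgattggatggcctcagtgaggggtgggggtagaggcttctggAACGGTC
Tdrd12 (chr7:35537745-35537994, minus strand): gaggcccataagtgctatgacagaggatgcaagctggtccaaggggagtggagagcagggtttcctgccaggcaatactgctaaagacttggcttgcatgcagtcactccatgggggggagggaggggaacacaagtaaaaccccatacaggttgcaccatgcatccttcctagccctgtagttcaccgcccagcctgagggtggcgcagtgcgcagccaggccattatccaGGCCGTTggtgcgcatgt
Tekt2 (chr4:126325689-126325938, minus strand): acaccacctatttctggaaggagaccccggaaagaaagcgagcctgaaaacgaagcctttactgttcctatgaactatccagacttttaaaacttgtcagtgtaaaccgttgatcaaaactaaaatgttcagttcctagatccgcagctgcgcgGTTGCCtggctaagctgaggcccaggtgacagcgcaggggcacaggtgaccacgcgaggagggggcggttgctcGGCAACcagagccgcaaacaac
Ift140 (chr17:25015836-25016085, plus strand): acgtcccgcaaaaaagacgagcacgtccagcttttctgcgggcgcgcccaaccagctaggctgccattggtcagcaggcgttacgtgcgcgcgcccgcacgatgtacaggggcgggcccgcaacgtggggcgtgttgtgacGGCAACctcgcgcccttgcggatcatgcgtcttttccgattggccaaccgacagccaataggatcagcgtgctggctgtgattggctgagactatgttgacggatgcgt
Of the genes shown, Tdrd9 and Tdrd12, a helicase and a tudor protein of the piRNA pathway, rose by 1.44 and 2.58. Tekt2, a tektin of the flagellum, stood at 2.55 and 2.97 FPKM in KO and 95 and 103 FPKM in EE_KO, a rise of 4.73 (SE 0.13). Mael has 1 match that ends 91 bases before the gene's start, and the nearer of the 2 matches in Tekt2 lies 17 bases before it.

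Of 14 genes listed as RNA-binding and translation regulators, some of which store messages for spermatids, 10 rose and 4 fell. None was under 1 FPKM in KO, and their sum went from 515 and 500.2 FPKM to 3204 and 3437 FPKM. Pabpc2, a poly(A)-binding protein of the testis, stood at 6.89 and 6.57 FPKM in KO and 383 and 433 FPKM in EE_KO, a rise of 5.72 (SE 0.13). Ybx2, which holds messages in store, stood at 70.3 and 91.8 FPKM in KO and 1277 and 1307 FPKM in EE_KO. The rises of Papolb, a cytoplasmic poly(A) polymerase, and Ybx3 were 4.87 and 4.66. Dazl, a translation regulator present from spermatogonia on, fell by 1.30, from 73.1 and 70.3 FPKM to 27.8 and 29.2 FPKM, Celf1 by 1.49 and the X-linked export factor Nxf3 by 3.16.

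Genes of the meiotic divisions, which follow pachytene, rose in 24 of 30 cases and fell in 3 (median 1.76, sum 4.55-fold higher, 86.7% of WT). Ccna1, the cyclin of male meiosis, stood at 2.94 and 3.23 FPKM in KO and 106 and 107 FPKM in EE_KO, a rise of 4.72 (SE 0.16, adjusted p = 7.6e-07). Aurkc, a kinase of the meiotic centromere, stood at 0.585 and 0.567 FPKM in KO, 15.6 and 14.7 FPKM in EE_KO and 29.0 and 23.1 FPKM in WT. The difference of its EE_KO level from WT was not called (-0.74, adjusted p = 0.26). Aurka and Ccnb2 rose by 3.31 and 2.87. The X-linked cyclin Ccnb3, known from leptotene and zygotene, fell by 2.65, from 7.14 and 6.59 FPKM to 0.344 and 0.161 FPKM, and Ccna2, the cyclin of mitotic S phase, fell by 1.24.

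Genes of synapsis, recombination and sex body signalling moved in both directions, as did all genes tested, of which 44.2% rose and 40.1% fell. Of 20 synaptonemal complex and cohesin genes 9 rose and 7 fell, their sum went from 370 and 411 FPKM to 847 and 917 FPKM, and the median of 0.08 turned to -0.31 on the TPM scale and -0.15 after quantile normalization. Syce1, a central element protein, rose by 3.55, from 18.0 and 22.4 FPKM to 241 and 251 FPKM, Stag3, a meiotic cohesin, by 2.64 and Sycp2, an axial protein, by 2.07. Rad21 and Smc1a, cohesin subunits of mitotic cells, fell by 2.0 and 2.31, and Smc1a is X-linked. Sycp1 and Sycp3, the best known markers of synapsed axes, were named after their values were seen. Sycp3 stood at 42.4 and 54.9 FPKM in KO and 71.9 and 75.8 FPKM in EE_KO, and Sycp1 at 38.0 and 41.9 FPKM in KO and 50.1 and 62.0 FPKM in EE_KO. Their rises, 0.60 (adjusted p = 0.0044) and 0.47 (adjusted p = 0.012), were small beside those of the sperm genes.

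Recombination genes rose in 17 of 29 cases and fell in 6 (median 0.68), and the sum of the 30 listed went from 129 and 139 FPKM to 401 and 451 FPKM. Prr19, Psmc3ip and Cntd1, which act in strand exchange and crossover formation, rose by 4.03, 3.30 and 2.91. The falls included Dmc1, the recombinase of meiotic strand invasion (1.94 lower, from 11 and 13.2 FPKM to 2.66 and 2.17 FPKM) and the X-linked Tex11. In the sex body list 9 of 22 rose and 4 fell, against 44.2% and 40.1% of all genes tested. Its median of 0.30 was -0.04 on the TPM scale. Its sum nevertheless went from 316 and 361 FPKM to 1811 and 1914 FPKM, and most of the EE_KO sum was Hspa2 and Mael, whose values are given with the pachytene and piRNA genes. Mdc1, the adaptor that spreads the damage signal over the sex chromosomes, stood at 19.2 and 21.8 FPKM in KO and 83.3 and 88.6 FPKM in EE_KO, a rise of 2.02 (SE 0.10). Atr, the kinase that phosphorylates histone H2AX there, rose by 1.94, while the related kinase Atm fell by 1.68, Chek2 by 0.92 and Brca1 by 0.65. H2afx, the gene of that histone, was looked up after its values were known and was not called (57.0 and 63.8 FPKM in KO, 55.7 and 45.7 FPKM in EE_KO, adjusted p = 0.10).

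X-linked genes took 4.04% and 4.07% of all FPKM in KO and 0.75% and 0.619% in EE_KO. Of 571 X-linked genes tested 443 (77.6%) fell and 98 (17.2%) rose, and their median change was -1.84, which was 1.99 below that of autosomal genes. The size of this difference depended on the settings, from -0.24 without a filter on low values to -2.68 with TPM and -3.27 with voom on recovered reads. Over the genes tested, the ratio of X-linked to autosomal median FPKM was 1.23 and 1.15 in KO. It was 0.319 and 0.228 in EE_KO and 0.227 and 0.251 in WT. An X-linked gene low in EE_KO passed the limit of 1 FPKM only through KO, so the filter itself bears on this ratio. Over the Y chromosome 11 of 13 genes (84.6%) fell and 1 (7.69%) rose. A Y-linked gene under 1 FPKM in EE_KO likewise passed the limit only through KO. Y-linked genes took 0.0341% and 0.0376% of all FPKM in KO, 0.0255% and 0.0251% in EE_KO and 0.0198% and 0.0308% in WT. All 36 members of a list of X-linked genes that are silenced in pachytene fell, 9 of them to under 1 FPKM, and their sum went from 829 and 794 FPKM to 126 and 92.7 FPKM. Rpl10 (chromosome X) stood at 52.9 and 53.2 FPKM in KO and 6.05 and 4.33 FPKM in EE_KO, a fall of 3.14 (SE 0.15, adjusted p = 3.0e-06). Scml2, a polycomb protein of the germ line, stood at 14.8 and 15.0 FPKM in KO and 1.51 and 1.35 FPKM in EE_KO. Taf7l, a germ cell paralogue of Taf7, fell by 2.55. Ddx3y and Eif2s3y, an RNA helicase and a translation factor on the Y, fell by 2.68 and 1.76. Among all X-linked genes the smallest p belonged to 1700018G05Rik, which stood at 128 and 153 FPKM in KO and 7.78 and 5.54 FPKM in EE_KO.

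X-linked genes known from round spermatids moved the other way. Of 15 such genes 11 were tested, 9 of them under 1 FPKM in KO, and the sum of all 15 went from 22.9 and 25.4 FPKM to 291 and 351 FPKM. Besides Akap4, Tsga8 stood at 7.49 and 6.83 FPKM in KO and 86.0 and 94.7 FPKM in EE_KO, a rise of 3.48 (SE 0.21). Cypt2 and Cypt3, small basic proteins of spermatids with close relatives in the genome, rose by 3.72 and 4.12. Ctag2 rose by 3.63, from 0.196 and 0.0674 FPKM to 12 and 14.1 FPKM. The processed pseudogene Gm9059 was listed at 0 in both KO libraries and at 11.2 and 11.7 FPKM in EE_KO, and its reads may belong to related copies. The list member 1700013H16Rik fell, by 0.96 (adjusted p = 0.0061), a call that was lost without KO replicate 2.

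**Figure D4:**
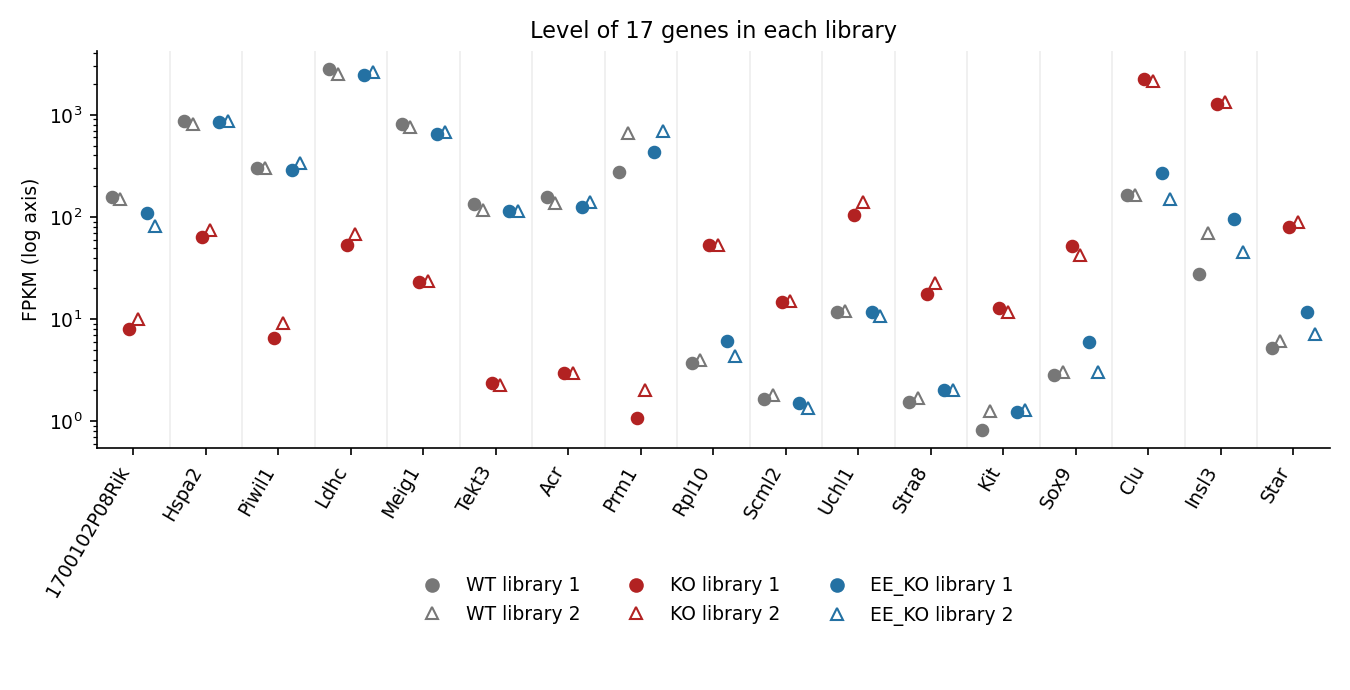
Level of 17 genes (vertical axis, FPKM, log scale) in each library, with WT in grey, KO in red and EE_KO in blue, circles for library 1 and triangles for library 2. The MAPS gene and the 7 genes to its right are low in KO and high in EE_KO, and the 9 genes from Rpl10 onward are high in KO and low in EE_KO.

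Markers of testicular somatic cells were among the RNA that fell. Leydig cells make testosterone between the tubules, and Sertoli cells nurse the germ cells within them. Of 30 Sertoli markers 29 were tested and all 29 fell (median -3.31), 3 of them to under 1 FPKM. Their sum was 8522 and 7921 FPKM in KO, 1028 and 534 FPKM in EE_KO and 654 and 641 FPKM in WT, 10.5-fold higher in KO than in EE_KO. Gata4, a transcription factor of gonadal somatic cells, stood at 54.4 and 42.8 FPKM in KO and 5.60 and 3.66 FPKM in EE_KO, a fall of 3.15 (SE 0.20, adjusted p = 8.2e-06). Wt1, needed for Sertoli identity, stood at 66.8 and 56.9 FPKM in KO and 8.32 and 4.90 FPKM in EE_KO. Kitl, the ligand that feeds KIT-bearing germ cells, fell by 2.89 and Mro by 3.44. Sox9 and Clu, shown in the plot of gene levels and chosen with their values known, fell by 3.17 and 3.46. Clu, which encodes a secreted chaperone, was the most abundant of them, at 2240 and 2161 FPKM in KO and 268 and 149 FPKM in EE_KO.

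Of 21 Leydig markers 20 were tested and all 20 fell (median -3.86), 3 of them to under 1 FPKM. Their sum was 3184 and 2963 FPKM in KO and 259 and 126 FPKM in EE_KO, 16-fold higher in KO. In WT the sum was 100 and 158 FPKM. Igfbp3, a binding protein of insulin-like growth factors (minus strand of chromosome 11, 7206086 to 7213923), stood at 66.4 and 67.6 FPKM in KO and 1.64 and 0.598 FPKM in EE_KO. Its fall of 5.05 (SE 0.23, adjusted p = 2.4e-06) was the largest among named genes. Hsd3b1, an enzyme of steroid synthesis, stood at 57.5 and 49.4 FPKM in KO and 4.05 and 5.01 FPKM in EE_KO. Scarb1, a receptor that takes up cholesterol, and Fdxr, which passes electrons to steroid enzymes, fell by 2.19 and 2.56, the former from 35.8 and 32.0 FPKM to 7.26 and 6.03 FPKM. Insl3, a Leydig hormone shown in the plot of gene levels and chosen with its values known, stood at 1277 and 1321 FPKM in KO and 94.7 and 45.8 FPKM in EE_KO. Klk1b21, Klk1b24 and Klk1b27, kallikreins of Leydig cells, fell by 4.90, 4.43 and 4.79, but these genes are close copies of each other and their separate values are uncertain.

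The remaining somatic RNA differed between the EE_KO libraries. All 29 Sertoli markers and 18 of 20 Leydig markers were higher in EE_KO library 1 than in library 2, with ratios of their sums of 1.92 and 2.06. Against the KO mean the Sertoli sum was 12.5% in EE_KO library 1 and 6.50% in library 2, and the Leydig sum was 8.44% and 4.09%. Both libraries thus lay far below KO, and KO libraries differed by ratios of 1.08 and 1.07. EE_KO library 1 also held more RNA of the silenced X-linked genes (35 of 36 members, ratio 1.36), of matrix genes (16 of 17, ratio 1.69) and of immediate early genes (20 of 22, ratio 1.72). Each EE_KO library by itself stood at 15.5% or less of the KO mean for all 3 lists.

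Matrix genes, mostly products of fibroblasts, peritubular cells and Sertoli cells, fell in 15 of 17 cases (21 listed, sum 9.84-fold higher in KO). Sparc, a matrix glycoprotein, stood at 428 and 369 FPKM in KO and 51.8 and 32.3 FPKM in EE_KO, a fall of 3.25 (SE 0.21). Timp1, an X-linked inhibitor of matrix proteases, fell by 4.88, from 45.8 and 51.9 FPKM to 1.46 and 0.150 FPKM, and the laminin chain gene Lamb2 fell by 3.29. Lama2, another laminin chain, rose by 1.33 from 0.341 and 0.303 FPKM, and Nid2 by 0.74 (adjusted p = 0.012), a call lost on the TPM scale and without EE_KO replicate 1 or KO replicate 2. Apoe and Apoc1, apolipoproteins outside the lists, fell by 4.49 and 4.43, Ass1, an enzyme of arginine synthesis, by 4.42 and Lrg1 by 4.36.

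Other somatic cells gave little RNA in any group. Of 15 peritubular and endothelial markers 5 were tested, and their sum was 31.9 and 30.2 FPKM in KO and 39.5 and 41.2 FPKM in EE_KO. Most of that was Actg2, a smooth muscle actin, which rose by 4.56 (SE 0.21), from 0.322 and 0.591 FPKM to 30.8 and 35.9 FPKM, whereas Pdgfra, Cdh5 and Acta2 fell by 2.24, 1.48 and 2.22. Of 17 leukocyte markers 10 were tested and 9 fell (sum of all 17 at 66.6 and 56.4 FPKM in KO and 38.5 and 42.6 FPKM in EE_KO), among them Ccl2, Cd14 and Cd74, by 2.48, 1.80 and 2.54. Aif1, a calcium-binding protein used to mark macrophages, rose by 4.39 (SE 0.27), from 0.436 and 0.488 FPKM to 26.9 and 32.7 FPKM, near the 24.9 and 45.7 FPKM of WT. Of 7 blood markers only Alas2, the X-linked enzyme of haem synthesis, passed the limit of 1 FPKM, and the globin genes Hba-a2 and Hbb-bt were listed at 0 in every library.

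Markers of spermatogonia fell in most cases, while leptotene and zygotene genes moved in both directions. Of 20 markers of undifferentiated spermatogonia 12 were tested, of which 10 fell and 2 rose (median -1.91), with 5 under 1 FPKM in EE_KO. The sum of all 20 was 184 and 218 FPKM in KO and 43.4 and 42.3 FPKM in EE_KO, 4.68-fold higher in KO, and WT stood at 42.1 and 43.7 FPKM. Most of the KO sum was Uchl1, a ubiquitin hydrolase of spermatogonia. Uchl1 stood at 103 and 139 FPKM in KO and 11.8 and 10.7 FPKM in EE_KO, a fall of 3.30 (SE 0.15, adjusted p = 2.4e-06). Zbtb16, a factor of stem cell maintenance, stood at 3.61 and 3.86 FPKM in KO and 0.323 and 0.278 FPKM in EE_KO. The X-linked Sox3 fell by 2.38 and Tspan8 by 2.09. Id4, a stem cell marker, rose by 0.54 from 10.9 and 10.6 FPKM to 15.4 and 16.9 FPKM, a call lost on the TPM scale, and Bcl6b rose by 0.88, a call lost without KO replicate 1.

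Among markers of differentiating spermatogonia and meiotic entry 12 fell and 3 rose of 16 tested. Kit, the receptor of differentiating spermatogonia, stood at 12.8 and 11.8 FPKM in KO and 1.23 and 1.28 FPKM in EE_KO, a fall of 2.56 (SE 0.16). Stra8, the gatekeeper of meiotic entry, stood at 17.6 and 22.3 FPKM in KO and 2.01 and 2.04 FPKM in EE_KO. WT stood at 0.818 and 1.26 FPKM for Kit and at 1.55 and 1.69 FPKM for Stra8, close to EE_KO. In the same list Dmrtb1, Meioc, which sustains the meiotic programme, and Rbm46, an RNA-binding protein of the germ line, rose by 4.51, 1.99 and 1.80, so that the sum of the list was higher in EE_KO (612 and 652 FPKM) than in KO (204 and 220 FPKM) although the median change was -1.82. Leptotene and zygotene genes rose in 10 of 20 cases and fell in 6 (median 0.43), against 44.2% and 40.1% of all genes tested. Their sum went from 218 and 257 FPKM to 481 and 500.1 FPKM. Spo11, which makes the DNA breaks of meiosis, stood at 4.13 and 4.79 FPKM in KO and 33.7 and 38.0 FPKM in EE_KO. Terb1, which ties telomeres to the nuclear envelope, rose by 2.44. Prdm9, which places those breaks, fell by 1.76, from 3.53 and 4.14 FPKM to 0.507 and 0.341 FPKM.

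**Figure D5:**
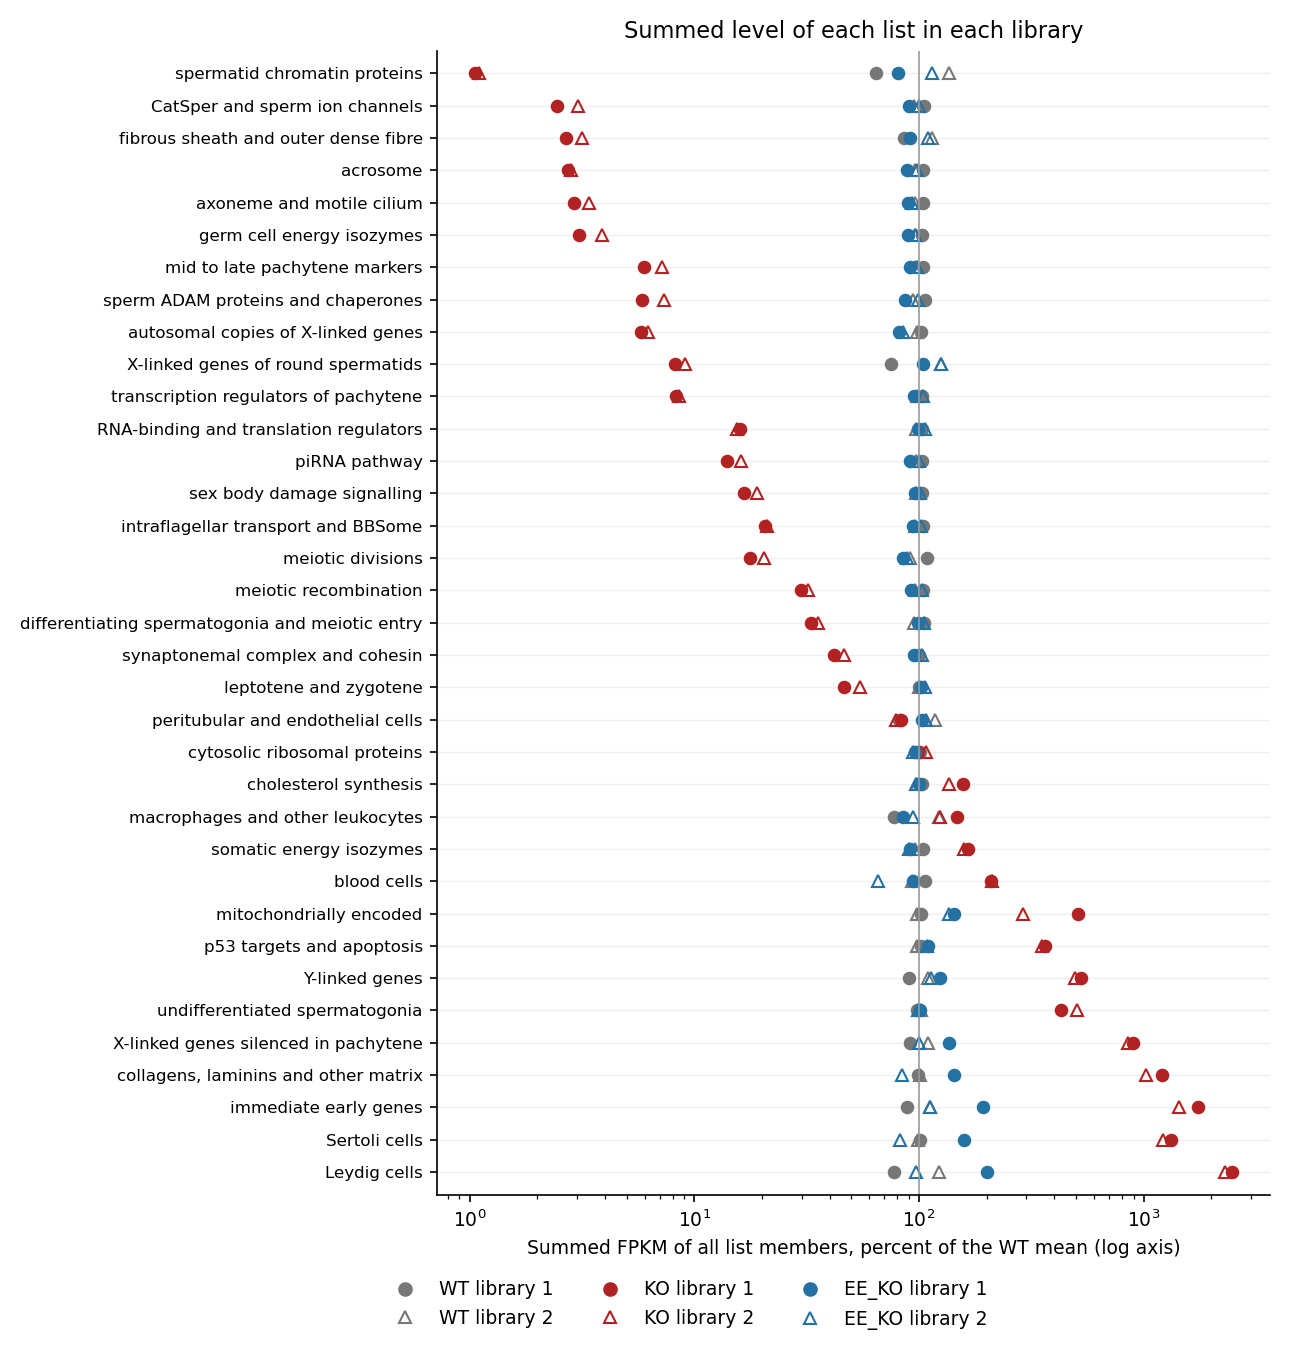
Summed FPKM of all members of each gene list in each library as percent of the WT mean (horizontal log axis), with WT in grey, KO in red and EE_KO in blue. EE_KO libraries lie near 100% in most lists, while KO ranges from 1.08% of the WT mean for spermatid chromatin to 2381% for Leydig cell markers (mean of both libraries).

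Genes of stress and signalling fell in most cases. Of 22 immediate early genes, which respond within minutes to growth factors or handling, 18 fell and 2 rose (median -3.37), and the sum went from 3252 and 2675 FPKM to 359 and 209 FPKM. In WT the sum was 165 and 210 FPKM. Jund, an AP-1 subunit, stood at 109 and 127 FPKM in KO and 13.6 and 10.01 FPKM in EE_KO, and Btg2, Ier3 and Dusp1 fell by 3.80, 3.62 and 3.45. Ier5 and Fosl1 rose by 1.42 and 0.78. Of 19 p53 targets and apoptosis genes 16 fell and 2 rose, and the sum of the 22 listed went from 374 and 362 FPKM to 113 and 112 FPKM. Cdkn1a, the cell cycle inhibitor p21, stood at 22.8 and 26.6 FPKM in KO and 2.52 and 1.84 FPKM in EE_KO, a fall of 3.02 (SE 0.16). Phlda3, an inhibitor of AKT, and the BH3 gene Bbc3 fell by 4.0 and 2.38. Mdm2, which restrains p53, rose by 0.97 and Zmat3 by 1.35. The Sertoli and Leydig sums fell in the same libraries, and their part in these changes was not tested.

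Cholesterol synthesis, which supplies steroid-making cells, fell in 15 of 19 cases (median -1.28), and the sum of its 20 genes went from 319 and 276 FPKM to 204 and 198 FPKM. Ebp, an X-linked sterol isomerase, fell by 3.45, Msmo1 by 3.05 and Hmgcs1 by 1.83. Fdft1, which makes squalene, rose by 2.52 (SE 0.11), from 15.0 and 15.8 FPKM to 89.2 and 96.6 FPKM, and Idi1 and Sqle rose by 1.17 and 0.75. Mitochondrially encoded genes fell in 10 of 13 cases (median -1.58, sum 2.86-fold higher in KO), but the KO libraries differed, with sums of 28527 and 16105 FPKM. The EE_KO sum of these genes stood at 140% of WT. The 34 cytosolic ribosomal protein genes moved little as a group (median -0.07), with 5 higher, 15 lower and 14 not called, and sums of 3566 and 3845 FPKM in KO and 3439 and 3382 FPKM in EE_KO. Rps7 rose by 1.41, and Rpl14 and Rps2 fell by 1.28 and 1.19. Such genes have many processed copies, so their single values are uncertain.

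Few genes were called as differing between EE_KO and WT. In a comparison of EE_KO with WT over the same 15901 genes, limma called 3 genes higher (0.0189%) and 3 lower (0.0189%). With 2 libraries per group, a gene that is not called may still differ from WT. The MAPS gene, at 62.1% of WT, was not called. Zfp990, a zinc finger gene on chromosome 4 whose close relatives make its reads uncertain, stood at 5.39 and 5.0 FPKM in EE_KO, 0.207 and 0.247 FPKM in KO and 0.204 and 0.208 FPKM in WT (2.36 above WT, adjusted p = 0.016). Parvg, a parvin of focal adhesions, stood at 4.20 and 4.97 FPKM in EE_KO, 0.0540 and 0.112 FPKM in KO and 15.7 and 15.0 FPKM in WT (1.55 below WT, adjusted p = 0.044). Tomm7, a subunit of the mitochondrial import pore, stood at 18.3 and 17.5 FPKM in EE_KO, 9.70 and 9.62 FPKM in KO and 41.0 and 39.1 FPKM in WT (1.12 below WT, adjusted p = 0.039). The others, named after their values were seen, were Gm4864 and the pseudogene Nudc-ps1 above WT (adjusted p = 0.019 and 0.037) and Mir7682 below it (adjusted p = 0.019), which was listed at 0 in both EE_KO libraries. Klb, the co-receptor of endocrine fibroblast growth factors, stood at 3.29 and 4.04 FPKM in EE_KO against 0.675 and 0.508 FPKM in WT, which was not called (adjusted p = 0.068). Hsd3b6, Cxcl10 and Cxcl1 fell from KO to EE_KO by 4.27, 3.23 and 3.98 and remained above both WT libraries in each EE_KO library, without a call against WT. Epyc, Slamf7 and Hspb7 rose by 1.19, 3.15 and 2.77 and stayed below both WT libraries, also without a call.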

How the data were processed

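RNA was sequenced from purified pachytene cells of WT, KO and EE_KO mice, 2 libraries each, from 1.3 µg of total RNA per library and a SMARTer kit, per the labels' protocols. The authors deposited FPKM for 54532 Ensembl genes in each library, per the file headers. The submitters' processing notes name GRCm38 and mm10, with the aligner, counter, annotation release and strand not given in the sources used here. Symbols, types, positions and exon lengths were taken from GENCODE M21, which lacks 37 of the genes. FPKM times exon-union length was a whole number of reads (tolerance 0.01) for 96.8 to 97.0% of values above 0, which gave the depth of each library.

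Genes with a mean of at least 1 FPKM over the 4 EE_KO and KO libraries were fitted, 562 short RNA genes included. All 6 libraries entered 1 model of limma 3.58.1 in R 4.3.3, whose empirical Bayes step followed the trend of variance with mean level. The values modelled were log2(FPKM + 1). The pseudocount of 1 FPKM understates changes of low genes, and a gene low in 1 group passes the filter only through the other. Genes were called where p, adjusted by Benjamini and Hochberg's method over the whole table, was below 0.05. An exact permutation test of 2 against 2 libraries cannot go below p = 0.333 (two-sided), so none is given. Lists are described by counts, medians and summed FPKM. In the text, "under 1 FPKM" refers to the group mean.

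The members, the 35 gene lists and the tests were chosen with earlier results of these data known. Genes named are the MAPS gene, the 10 largest rises and falls with groups that do not overlap (short RNAs and clone names passed over), up to 4 members of each list with the smallest p and up to 3 that moved against it, the 5 X-linked genes of smallest p, the 10 called genes farthest above and below WT, and both genes of 20 pairs. Others are said to be chosen later. Promoters came from RefSeq (GRCm38.p6) and were matched by symbol, nearest to the GENCODE start, for 19033 genes.

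Tested on simulated data for EE_KO against KO over 15901 genes, the fit found 90% of genes raised 2-fold and 72% of those lowered 2-fold. At 4-fold it found 98% of raised and 92% of lowered genes. Among 15701 genes left unchanged it made 11 false calls. Few genes changed in that simulation, unlike in the data. The changed genes, 50 for each fold, were drawn from above the lowest levels tested, and the simulated spread was taken from higher genes. The rates therefore do not cover genes near 1 FPKM. Alternatives were a pseudocount of 0.1 FPKM, other filters, TPM and quantile scaling, EE_KO and KO libraries alone, a replicate block, no trend, limma's voom on recovered reads and each library left out in turn. Leaving out short RNAs was added after the data were seen. Python 3.11.15 with pandas 2.3.3, numpy 2.4.6 and matplotlib 3.10.9 made tables and figures.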

Additional observations from a re-analysis of the deposited data

How the results depend on the processing

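Of 231 genes named by rule 230 were called, and 218 of these kept their call and direction under every alternative that tested them. Named genes with a mean under 5 FPKM were not tested under the filter of at least 5 FPKM. Calls were lost under at least 1 alternative for 1700013H16Rik, Bcl6b, Eno1, Id4, Ndufa12, Nid2, Pnldc1, Rpl32, Rpl36al, Sgo1, Syt5 and Zfp993. Directions turned for Eno1 (-0.14 on the TPM scale and -0.36 after quantile normalization) and for Rpl32 (-0.10 after quantile normalization, from 0.65). The list median turned for synapsis and cohesin (-0.31 with TPM, -0.15 with quantile normalization) and for sex body signalling (-0.036 with TPM). With a filter of at least 5 FPKM, which leaves few members, it turned for peritubular and endothelial markers (1.17) and for leukocyte markers (1.05). That filter tested fewer genes and called 4395 higher and 3443 lower.

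The X-linked median change minus the autosomal median change, -1.99, was -2.68 with TPM, -2.18 with the filter over all 6 libraries, -3.08 with at least 5 FPKM, -0.24 without a filter, -3.10 with a pseudocount of 0.1 FPKM and -3.27 with voom. It stayed negative in each, and the unfiltered value includes many genes near 0 in every library. Leaving out each library in turn gave 6593 to 7011 genes higher, 5917 to 6346 lower and an X shift from -2.11 to -1.88. Voom on recovered reads called 7016 higher and 6357 lower.

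With the replicate number as a block, 6982 genes were higher and 6349 lower, and the X shift was -1.99. The labels do not say that equal numbers pair libraries, and deviations of equally numbered EE_KO and KO libraries correlated at 0.08 over genes, so no pairing was assumed. Depth limits genes near 1 FPKM, where 1 read over 2 kb is 0.0278 to 0.0357 FPKM.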
